A study of Mus musculus with 8 samples.

Results

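Keratins and the proteins of the cornified envelope were examined in primary cardiac fibroblasts of the mouse, the matrix-producing cells of the heart, after treatment with TGF-β, a cytokine that drives fibroblasts toward a contractile myofibroblast state. The genes were chosen by name and by count. A gene was included when its symbol was Krt, Sprr or Lce followed by a digit, apart from Krt7, Krt8, Krt18 and Krt19, or was Prr9, Ivl, Flg, Evpl, Ppl, Tgm1, Cnfn or Krtdap, and when at least 1 read was counted over the 8 libraries. These criteria gave 66 of the 22274 genes in the table. A further 28 genes had a matching name and no read, and 9 of the 66 had exactly 1 read. The 4 libraries labelled GFP carried the empty vector, and the 4 labelled OEIRF7 carried a vector for interferon regulatory factor 7 (IRF7). The study describes adenoviral transduction and a day of TGF-β. For adenovirus, its reagent list names human IRF7 with a FLAG tag and EGFP behind a CMV promoter. The deposited text instead names an adeno-associated virus. The reagent list also holds such a virus, with mouse Irf7 behind a periostin promoter, which the study describes injecting into mice. All 8 libraries received TGF-β, so none shows the level of these genes without it. The study's mouse strains had a C57BL/6J background, but the donors of these cells, and whether the 4 libraries of a group came from separate cultures or animals, are not specified, so that p-values measure the spread between libraries, which may be technical.

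Keratins are intermediate filament proteins that assemble as pairs of a type I and a type II chain, and they are the hallmark of epithelial cells. In the outer epidermis, the plasma membrane is replaced by the cornified envelope, a shell of involucrin, small proline-rich (SPRR) proteins, late cornified envelope (LCE) proteins and loricrin that transglutaminases cross-link. Most genes for these proteins lie side by side in the epidermal differentiation complex, a cluster that also holds the S100 genes. Fibroblasts have vimentin filaments instead, and neither cornification nor most keratins belong to their usual program. AP-1, the dimer of Jun and Fos proteins, is a known regulator of several SPRR genes and of involucrin in keratinocytes.

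Of the 66 genes, 30 lie in the epidermal differentiation complex on chromosome 3, 32 are keratins and 4 encode other envelope proteins or enzymes. Among the keratins, 18 are type I genes on chromosome 11 and 14 are type II genes on chromosome 15. Library depth was even, with 24454801 to 28658826 counts per library, and the mouse Irf7 gene had fewer counts in the libraries labelled OEIRF7 than in those labelled GFP (15.2 ± 0.822 against 118 ± 24 CPM, counts scaled to library size, SD, n = 4 each, log2 fold change -2.96). A human transgene would not be counted in the mouse gene, so these counts do not check the labels if the virus carried human IRF7, and they go against them if it carried the mouse gene. Directions are therefore given between libraries as labelled.

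The promoters of 5 chosen genes of the complex are shown as examples, 4 with higher counts and Sprr3 with lower counts in the libraries labelled OEIRF7. The sequences are RefSeq promoters of build GRCm38.p6, from 250 bases before to 50 bases after the start, written 5′ to 3′ on the gene's strand. They span chr3:92123898-92124197 for Prr9 (minus strand), chr3:92485832-92486131 for Sprr1a (minus strand), chr3:92351893-92352192 for Sprr2e (plus strand), chr3:92573686-92573985 for Ivl (minus strand) and chr3:92458671-92458970 for Sprr3 (minus strand). Capitals mark matches to the AP-1 motif TGANTCA, where N is any base, and to the TATA motif TATAAA, each searched on both strands.
Prr9: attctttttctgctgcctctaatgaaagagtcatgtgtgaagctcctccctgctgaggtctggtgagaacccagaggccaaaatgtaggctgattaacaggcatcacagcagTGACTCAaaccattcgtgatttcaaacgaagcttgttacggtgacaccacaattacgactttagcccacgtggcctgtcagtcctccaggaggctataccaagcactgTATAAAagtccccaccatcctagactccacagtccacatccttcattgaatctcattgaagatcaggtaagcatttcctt
Sprr1a: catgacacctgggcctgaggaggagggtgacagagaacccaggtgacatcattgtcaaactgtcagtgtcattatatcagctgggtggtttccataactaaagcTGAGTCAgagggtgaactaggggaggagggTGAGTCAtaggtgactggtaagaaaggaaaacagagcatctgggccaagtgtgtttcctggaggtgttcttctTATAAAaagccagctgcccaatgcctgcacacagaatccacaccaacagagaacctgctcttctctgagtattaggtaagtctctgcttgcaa
Sprr2e: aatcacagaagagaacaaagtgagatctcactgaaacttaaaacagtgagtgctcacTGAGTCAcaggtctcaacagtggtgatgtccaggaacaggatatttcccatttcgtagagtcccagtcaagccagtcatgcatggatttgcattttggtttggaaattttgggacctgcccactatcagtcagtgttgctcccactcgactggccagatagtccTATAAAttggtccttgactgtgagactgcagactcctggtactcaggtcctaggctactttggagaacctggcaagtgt
Ivl: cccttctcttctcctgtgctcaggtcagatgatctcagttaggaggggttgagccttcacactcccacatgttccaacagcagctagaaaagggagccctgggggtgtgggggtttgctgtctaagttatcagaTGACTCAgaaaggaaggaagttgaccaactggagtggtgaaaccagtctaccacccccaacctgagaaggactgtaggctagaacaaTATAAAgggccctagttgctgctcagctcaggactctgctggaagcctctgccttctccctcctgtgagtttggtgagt
Sprr3: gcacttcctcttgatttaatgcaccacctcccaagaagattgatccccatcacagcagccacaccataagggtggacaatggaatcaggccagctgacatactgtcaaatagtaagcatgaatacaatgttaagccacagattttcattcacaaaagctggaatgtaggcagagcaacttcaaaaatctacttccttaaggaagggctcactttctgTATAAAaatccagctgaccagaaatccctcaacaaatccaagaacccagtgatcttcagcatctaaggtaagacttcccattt
The TATA match started 30 bases before the start in Prr9, 43 in Sprr1a, 29 in Sprr2e and in Ivl, and 33 in Sprr3. An AP-1 match started 138 bases before the start in Prr9, 193 in Sprr2e and 116 in Ivl, while Sprr1a held 2, at 146 and 116 bases. The Sprr3 window held no AP-1 match, and no AP-1 match overlapped a TATA match in these 5 windows. The split in AP-1 matches among these examples rests on their choice, since the windows of Sprr2a2 and Lce1g, also with higher counts, held none.

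Across all genes, 13533 passed the filter on low counts and were tested with edgeR's quasi-likelihood test, and the median log2 fold change of all tested genes was 0.00. With a Benjamini-Hochberg adjusted p under 0.05 and a log2 fold change past 1, 4.66% of the tested genes were higher and 3.89% were lower in the libraries labelled OEIRF7. Without the limit on size, 29.0% were higher and 29.9% lower at an adjusted p under 0.05. Of the 66 genes, 16 could be tested, and 10 of these were higher and 1 was lower past the limit of size. At any size, 12 were higher (Krt10 and Krt80 in addition), 2 were lower (Sprr3 and Ppl) and 2 did not pass (Sprr2a1 and Evpl). Of the 16, 7 (Prr9, Lce1f, Ivl, Sprr2e, Lce1g, Sprr2f and Sprr2g) had under 10 counts in every GFP library, passed the filter only through the libraries labelled OEIRF7 and so had to differ, which is why the share that was called is a description and no support. The other 50 had too few counts, at most 79 over all libraries.

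The summed level of the 66 genes was 35.9 ± 2.02 CPM with GFP and 115 ± 9.79 CPM with OEIRF7 (SD, n = 4 each), a ratio of 3.2. The 30 genes of the complex accounted for most of the difference, with sums of 16.1 ± 1.70 and 90.2 ± 10.2 CPM. Keratins summed to 8.59 ± 1.24 CPM with GFP and 15.4 ± 0.573 CPM with OEIRF7. Most of the keratin sum came from Krt80, with 6.26 ± 1.29 CPM with GFP and 10.5 ± 0.457 CPM with OEIRF7. The 4 other envelope genes went the opposite way, from 11.2 ± 0.606 to 9.38 ± 0.668 CPM. The lowest OEIRF7 library exceeded the highest GFP library for the complex (78.1 against 18.3 CPM) and for the keratins (14.6 against 9.82 CPM). Sprr1a alone contributed 25.4% of the counts of the 66 genes with GFP and 32.7% with OEIRF7, and without it the sums were 26.8 ± 1.34 and 77.2 ± 5.38 CPM. These sums compare the libraries and carry no test, and in bulk RNA a change in the number of expressing cells and a change in RNA per cell cannot be told apart.

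**Figure D1:**
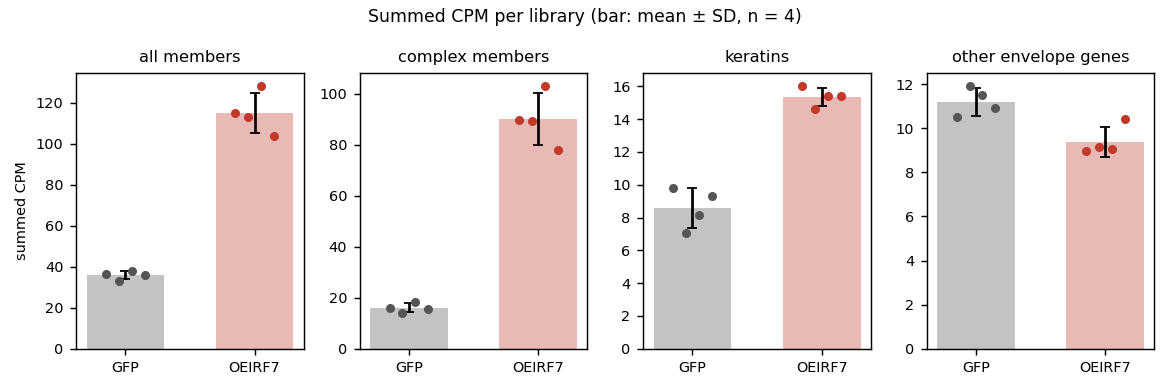
Summed CPM (vertical axes, starting at 0) of all 66 genes, of the 30 in the epidermal differentiation complex, of the 32 keratins and of the 4 other envelope genes, in the libraries labelled GFP (grey) and OEIRF7 (red). Points are libraries, bars the mean and error bars the SD (n = 4), and in the complex the 4 OEIRF7 libraries lie from 78.1 to 103 CPM against 14.2 to 18.3 CPM with GFP.

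With OEIRF7, Sprr1a had the largest count of the 66 genes, whereas with GFP the largest was that of Ppl. Sprr1a (ENSMUSG00000050359, chr3:92483952-92485895 on the minus strand of GRCm38), which encodes a cross-linked precursor of the envelope and is also known from injured neurons and stressed heart muscle, had 254, 208, 256 and 219 raw counts in the GFP libraries 1 to 4 and 960, 976, 1161 and 844 in the OEIRF7 libraries 1 to 4. The lowest OEIRF7 library, at 844, lay far above the highest GFP library, at 256. The log2 fold change was 2.04 (standard error (SE) 0.10, edgeR adjusted p = 5.06e-10), and the exact two-sided permutation test gave p = 0.029, the smallest that 4 against 4 libraries allow. Per gene length, Sprr1a was the most abundant of the 66 in both groups, with 11.2 ± 1.22 FPKM, fragments normalized for gene length and depth, with GFP and 47.1 ± 6.66 FPKM with OEIRF7 (SD, n = 4 each). Sprr1b, its closest relative by name, had no count with GFP and 3 with OEIRF7.

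Members of the Sprr2 family, a tandem array of closely similar genes, differed in their starting level. Sprr2a2 had 69, 43, 71 and 58 counts with GFP and 269, 320, 271 and 245 with OEIRF7 (log2 fold change 2.16, SE 0.13, edgeR adjusted p = 2.55e-09). Its annotated exons overlap those of Sprr2a1 on the same strand, so the split of reads between this pair is uncertain. Sprr2a1 had 8, 0, 11 and 11 counts with GFP and 20, 17, 22 and 8 with OEIRF7, groups that overlap, and it did not pass the test (log2 fold change 1.12, SE 0.52, edgeR adjusted p = 0.0785), although without OEIRF7 replicate 4 its adjusted p was 0.0464. Sprr2a3, another copy of this subgroup, had 11 counts with GFP and 31 with OEIRF7 (ratio 2.76, 95% counting interval 1.35 to 6.08) and was not tested.

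Further along the array the GFP libraries were nearly empty. Sprr2e had 0, 0, 1 and 0 counts with GFP and 132, 131, 128 and 82 with OEIRF7, so that 1 read stood against 473. The ratio of the depth-adjusted counts was 463, with a 95% counting interval from 82.7 to 18300. The fitted log2 fold change of 8.27 (SE 0.44, edgeR adjusted p = 8.2e-10) depends on the prior count. Each SE was calculated back from the log2 fold change and the F statistic of the test. For Sprr2e it is far narrower than the counting interval and does not give the precision. Without GFP replicate 3, which held the read, the fitted value was 9.88. Sprr2f had 0, 0, 0 and 4 counts with GFP and 46, 57, 29 and 30 with OEIRF7 (log2 fold change 5.14, SE 0.58, edgeR adjusted p = 2.73e-06), and without GFP replicate 4 its fitted log2 fold change was 8.32. Sprr2g, annotated as a polymorphic pseudogene, had 2, 2, 2 and 1 counts with GFP and 35, 35, 30 and 35 with OEIRF7 (log2 fold change 4.15, SE 0.35, edgeR adjusted p = 1.3e-07). In these 3 neighbours no OEIRF7 library overlapped a GFP library. All 3 passed the filter only through the libraries labelled OEIRF7 and so had to differ, which makes this a description and no support. Sprr2h, next in the array, had 1, 0, 0 and 0 counts with GFP and 10, 13, 16 and 5 with OEIRF7, a ratio of 43.0 (95% counting interval 7.33 to 1740), and was below the filter. Sprr2b and Sprr2k had 6 and 5 counts with GFP and 9 each with OEIRF7, intervals of the ratio that include 1 (0.466 to 5.01 and 0.53 to 6.69). Counting intervals cover counting error only.

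Sprr3, an SPRR gene of internal stratified epithelia such as the oesophagus, was the exception. Its counts were 66, 78, 86 and 79 with GFP and 15, 30, 17 and 16 with OEIRF7. All OEIRF7 libraries lay below all GFP libraries. Sprr3 fell by 2.02 on the log2 scale (SE 0.22, edgeR adjusted p = 1.6e-06), from 2.45 ± 0.348 to 0.607 ± 0.171 FPKM (SD, n = 4 each). Sprr3 lies between Sprr1b and Sprr1a in the complex. Of the 14 Sprr genes with a read, 7 were tested. Past the limit of size 5 were higher and 1 lower, beside 4.66% and 3.89% of all tested genes. Among the 5, Sprr2e, Sprr2f and Sprr2g passed the filter only through the libraries labelled OEIRF7, so their calls are no support. Sprr3 was the 1 gene of the 14 whose summed count was not higher with OEIRF7. Sprr2i and Sprr4 had no read.

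**Figure D2:**
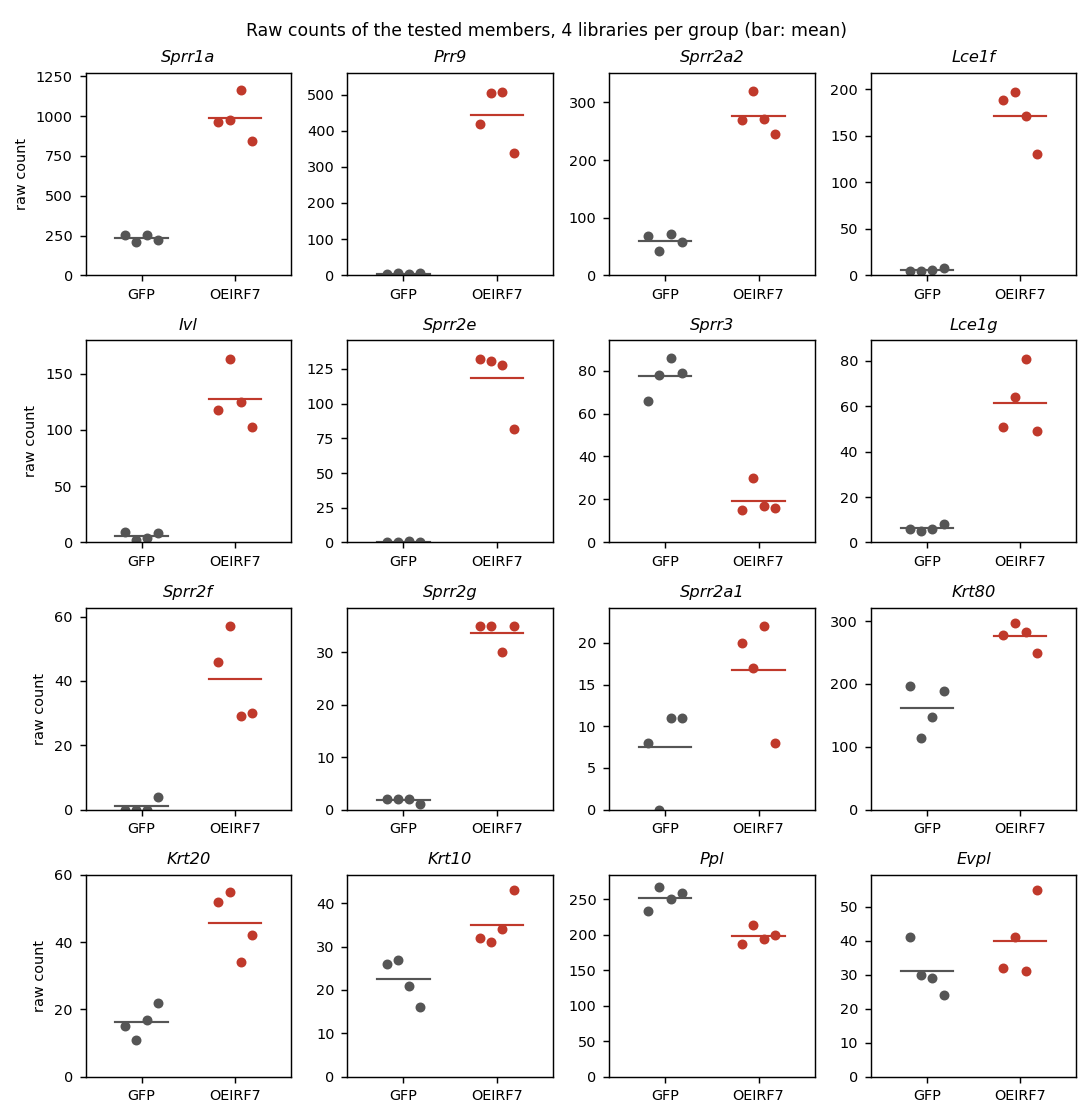
Raw counts (vertical axes, starting at 0, with a scale of their own in each panel) of the 16 tested genes in the libraries labelled GFP (grey) and OEIRF7 (red), where each point is a library and each bar the mean of 4. Sprr3 and Ppl are lower in OEIRF7, and the groups overlap in Sprr2a1 and Evpl, and in CPM also in Krt10. Prr9, Lce1f, Ivl, Sprr2e, Lce1g, Sprr2f and Sprr2g passed the filter on low counts only through OEIRF7 and so had to differ.

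Prr9 and Ivl flank this region. Prr9, a small proline-rich gene at the loricrin end of the complex whose product is found in hair and cornifying epithelium, had 4, 7, 3 and 6 counts with GFP and 419, 504, 507 and 338 with OEIRF7. Its log2 fold change was 6.40 (SE 0.20, edgeR adjusted p = 7.55e-12). The depth-adjusted ratio of 86.5 had a 95% counting interval from 55.8 to 142, since only 20 counts were found with GFP. With 14.3 ± 2.15 FPKM in OEIRF7 (SD, n = 4), Prr9 was close to Sprr2a2 at 14.6 ± 0.615 FPKM, and the SDs of this pair overlap. Involucrin (Ivl), the scaffold on which the envelope is first assembled, had 9, 2, 4 and 8 counts with GFP and 118, 163, 125 and 103 with OEIRF7. The log2 fold change of Ivl was 4.40 (SE 0.27, edgeR adjusted p = 3.54e-09), and its level with OEIRF7 was 2.53 ± 0.324 FPKM (SD, n = 4).

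Late cornified envelope genes, which encode late cross-linked components of the shell, were detected almost only from the Lce1 group. Lce1f had 5, 5, 6 and 8 counts with GFP and 188, 197, 171 and 130 with OEIRF7 (log2 fold change 4.77, SE 0.21, edgeR adjusted p = 1.33e-10). Lce1g had 6, 5, 6 and 8 counts with GFP and 51, 64, 81 and 49 with OEIRF7 (log2 fold change 3.24, SE 0.28, edgeR adjusted p = 1.85e-07). The GFP counts of this pair were thus alike and the OEIRF7 counts were not, with 9.03 ± 1.22 FPKM for Lce1f and 2.55 ± 0.606 FPKM for Lce1g (SD, n = 4 each).

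The other 10 Lce1 genes with reads were below the filter, and 8 of them had no count with GFP. Lce1a2 had no GFP count and 15, 35, 24 and 5 counts with OEIRF7, at least 25.8-fold higher when the GFP group is set to a floor of 3 counts over the group. On the same floor, Lce1d with 8, 12, 10 and 5 OEIRF7 counts was at least 11.4-fold higher and Lce1l with 3, 3, 5 and 3 was at least 4.57-fold higher. Lce1h had 1, 1, 0 and 0 counts with GFP and 14, 10, 11 and 12 with OEIRF7, a ratio of 23.0 (95% counting interval 6.02 to 195). Summed counts were higher with OEIRF7 in all 12 Lce1 genes with a read, although 6 of these had at most 5 counts in total. Lce1a1, Lce1c, Lce6a and Lce3a to Lce3e had no read, and Lce3f had 2 counts with GFP and 5 with OEIRF7. Filaggrin (Flg), the matrix protein that bundles keratin in the granular layer, had 1 count in all 8 libraries together.

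Order along the chromosome was compared with the fold changes. From Lor to Lce1m the complex spans 938 kb and holds 44 of the genes considered. Of these, 15 were tested, with 12 higher and 1 lower past the limit of size, beside 4.66% and 3.89% of all tested genes. Prr9, Lce1f, Ivl, Sprr2e, Lce1g, Sprr2f, Sprr2g, Lelp1 and Kprp passed the filter only through the libraries labelled OEIRF7. The count of called genes along this stretch is therefore a description and no support. The lower gene was Sprr3. Outside the 66, the complex held 5 genes higher past the limit of size among 15 tested of 26 listed, beside 4.66% of all tested genes. The called genes were S100a7a (psoriasin family, log2 fold change 2.21), Lelp1 (2.15), Kprp (keratinocyte proline-rich protein, 5.26), Crct1 (1.84) and Crnn (cornulin, 5.38). Lelp1, Kprp and Crnn passed the filter only through the libraries labelled OEIRF7, so their calls are a description and no support. Lelp1 had 7, 1, 8 and 1 counts with GFP and 19, 20, 24 and 16 with OEIRF7. Kprp had 0, 1, 1 and 2 counts with GFP and 50, 38, 50 and 37 with OEIRF7. Crnn had 0, 0, 2 and 0 counts with GFP and 23, 29, 33 and 21 with OEIRF7. Loricrin (Lor), the most abundant protein of the mature envelope, had 36, 32, 47 and 27 counts with GFP and 60, 67, 47 and 65 with OEIRF7 (log2 fold change 0.71, SE 0.21, edgeR adjusted p = 0.0093). Among the abundant S100 genes of the complex, which encode small calcium-binding proteins, S100a1 (0.60), S100a16 (0.55) and S100a13 (0.43) were higher and S100a11 (-0.08) lower at any size, and S100a6 (0.06) and S100a4 (-0.11) did not pass the test. Lce6a, Lce1a1 and Lce1c, without a read, lay in the stretch between the called genes Ivl and Lce1f, with untested genes among them.

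**Figure D3:**
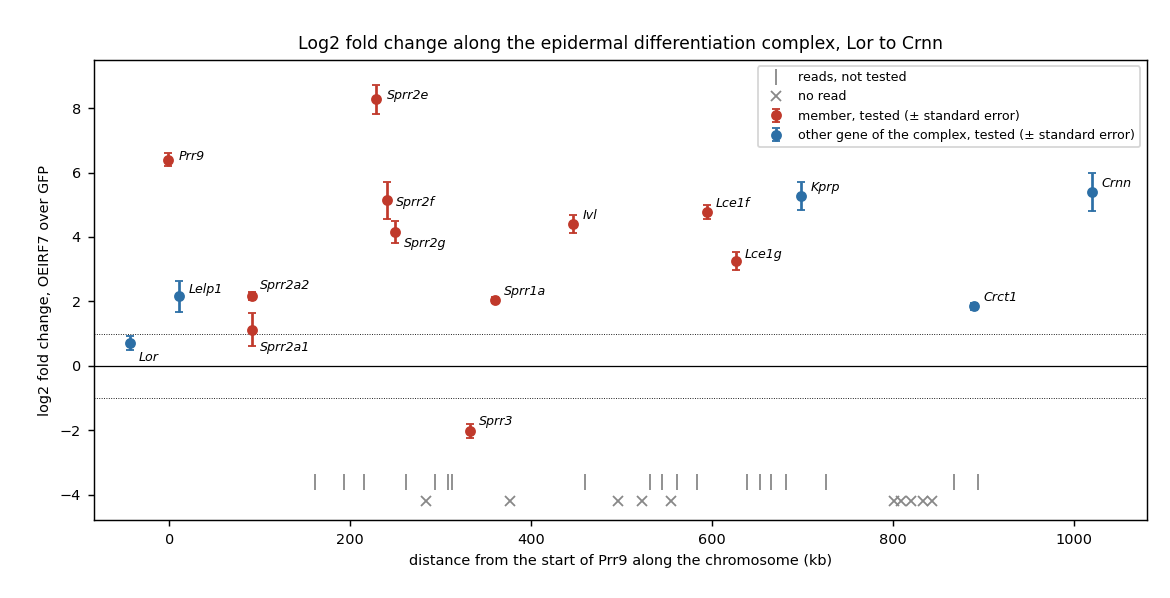
Log2 fold change, OEIRF7 over GFP (vertical axis), of tested genes against distance in kb from the start of Prr9 (horizontal axis), from Lor to Crnn, for the genes described here (red) and other genes of the complex (blue), with error bars of 1 SE. Dotted lines mark the limit of size, grey strokes genes with reads that were not tested and crosses genes with no read, and Sprr3 at -2.02 is the lower gene of the map. The SE was calculated back from the F statistic of the test. For genes nearly empty with GFP, such as Sprr2e, it is narrower than the counting interval.

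Of the 32 keratins, 3 could be tested. Krt80, a type II keratin linked to desmosomes in differentiating epithelium, had 197, 114, 147 and 188 counts with GFP and 278, 297, 282 and 249 with OEIRF7. It was higher without passing the limit of size (log2 fold change 0.75, SE 0.12, edgeR adjusted p = 9.52e-05). Krt20, a type I keratin of intestinal and urothelial surfaces, had 15, 11, 17 and 22 counts with GFP and 52, 55, 34 and 42 with OEIRF7. Krt20 was the tested keratin past the limit of size (log2 fold change 1.45, SE 0.25, edgeR adjusted p = 0.000169), although with limma on log2(FPKM + 1) its value was 0.53. Krt10, the type I keratin of the suprabasal epidermis, had 26, 27, 21 and 16 counts with GFP and 32, 31, 34 and 43 with OEIRF7, and its CPM values overlapped between groups. Its log2 fold change of 0.61 (SE 0.25) was at the threshold (edgeR adjusted p = 0.0499) and lost the call in 12 of its alternatives, with adjusted p from 0.0335 to 0.153 over all of them. Krt80 and Krt10 overlap the annotated antisense genes Gm35853 and Gm11940, and reads of the opposite strand may be included, because the strand setting of the counting is not given.

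Of the other 29 keratins, Krt17 stood out by its counts. Krt17, a type I keratin of wounded and hyperproliferative epidermis, had no count with GFP and 6, 14, 5 and 14 with OEIRF7, at least 12.7-fold higher on the floor of 3 counts over the group. Krt13 had 12 counts with GFP against 28 with OEIRF7 (ratio 2.28, 95% counting interval 1.12 to 4.93), of which OEIRF7 replicate 2 held 1. Krt24 had 3 against 18 (ratio 5.87, interval 1.71 to 31.1), of which 11 came from OEIRF7 replicate 1. The keratins of the basal epidermis were near 0 in both groups, with 6 counts each for Krt5 and 6 against 5 for Krt14. Krt222, Krt23, Krt28 and Krt79 had 14, 5, 9 and 12 counts with GFP and 6, 14, 11 and 4 with OEIRF7, with intervals of the ratio that include 1. Another 20 keratins had fewer than 10 counts each, 17 with GFP and 49 with OEIRF7 in all, and 17 keratin genes had no read, among them Krt6a and Krt6b.

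Plakins tie filaments to the envelope. Periplakin (Ppl) had 233, 267, 250 and 259 counts with GFP and 187, 214, 194 and 199 with OEIRF7, and it fell by 0.38 on the log2 scale (SE 0.087, edgeR adjusted p = 0.00166). Envoplakin (Evpl), its partner, had 41, 30, 29 and 24 counts with GFP and 32, 41, 31 and 55 with OEIRF7, groups that overlap (log2 fold change 0.33, SE 0.25, edgeR adjusted p = 0.275). Transglutaminase 1 (Tgm1), the membrane-bound enzyme that cross-links the envelope, had 8, 0, 5 and 3 counts with GFP and 12, 10, 6 and 2 with OEIRF7, below the filter. The interval of its ratio of 1.83 ran from 0.969 to 3.60. Krtdap had 1 count and Cnfn none.

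Genes that act with the envelope in epidermis were counted from lists of known genes. Of all tested genes, 4.66% were higher and 3.89% lower past the limit of size. At any size the shares were 29.0% and 29.9%, and the counts below stand beside these. Of 16 desmosome genes 8 were tested and 2 were higher past the limit of size, Dsc2 (desmocollin 2, log2 fold change 4.74) and Pkp1 (plakophilin 1, 1.0). Dsc2 was low with GFP, with 4, 4, 3 and 14 counts against 172, 202, 164 and 160 with OEIRF7. At any size 3 desmosome genes were higher and 4 lower, among them desmoplakin (Dsp, -0.85) and Perp (-0.67). Among 22 cornification enzymes and inhibitors, 8 were tested and Serpinb2, a serine protease inhibitor of the clade B family, was higher past the limit of size (2.21). At any size 5 of the 8 were higher. Simple epithelial keratins, which were left out of the 66 by name, held 1 called gene among 3 tested: Krt19 with 98, 94, 154 and 140 counts in GFP and 448, 443, 649 and 391 in OEIRF7 (log2 fold change 1.96). Krt7 and Krt18 did not pass (-0.29 and 0.49), and Krt8, with 15 counts in GFP and 17 in OEIRF7, was not tested. The medians of the log2 fold changes were -0.07 for the desmosome list, 0.58 for the enzymes and inhibitors and 0.49 for the simple keratins, beside 0.00 for all tested genes. Intermediate filament genes of other classes had 1 of 7 tested genes higher past the limit of size, desmin (Des, 1.08), with a median of 0.22, and vimentin (Vim) was at 0.22. Of the 7 plakin genes, which hold Ppl, Evpl and Dsp, all tested, 2 were higher and 3 lower at any size, with a median of -0.13.

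Transcription factors known from epidermal differentiation were mostly too low to test, with 8 of 18 tested. Past the limit of size 1 was higher and 1 lower, beside 4.66% and 3.89% of all tested genes. Prdm1, a zinc-finger repressor that acts in terminal differentiation of several cell types, was higher (1.89) and Grhl3, a grainyhead factor of the barrier, was lower (-1.11). Klf4, a factor of barrier formation, and its relative Klf5 were higher at any size (0.60 and 0.95), as were 29.0% of all tested genes. Among the factors too low to test, Ehf, an epithelial ETS factor, had 3, 0, 0 and 0 counts with GFP and 6, 26, 25 and 21 with OEIRF7 (ratio 25.4, 95% counting interval 8.39 to 126). Grhl1 had 4 counts against 23 (ratio 5.63, interval 1.92 to 22.4), and Trp63, the master regulator of stratified epithelia, had 6 counts with GFP and 7 with OEIRF7. All 7 AP-1 genes were tested and 3 were higher past the limit of size, beside 4.66% of all tested genes. Fosl1 had 181, 191, 221 and 229 counts with GFP and 863, 1039, 1126 and 863 with OEIRF7 (log2 fold change 2.21). Fosb and Junb had log2 fold changes of 1.55 and 1.41, Jun of 0.53, Fos of 0.61 and Jund of 0.32, and Fosl2 did not pass (0.10). The median of this list was 0.61.

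**Figure D4:**
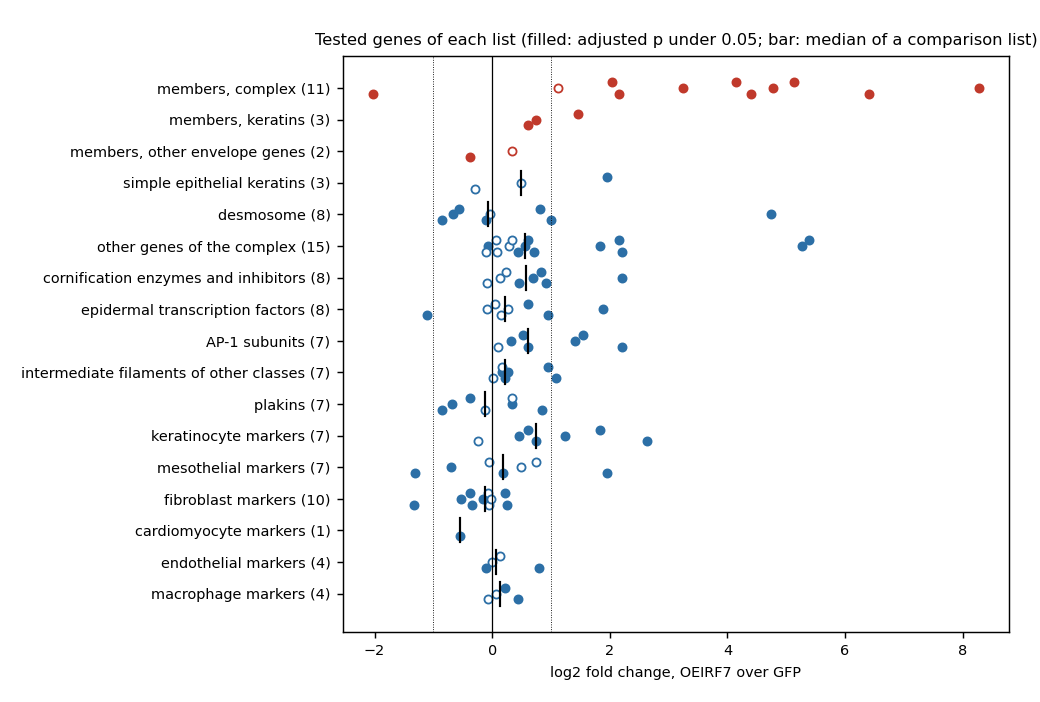
Log2 fold change, OEIRF7 over GFP (horizontal axis), of each tested gene by list, with the number tested in brackets, filled points for an adjusted p under 0.05, open points for the rest and a bar at the median of each comparison list (0.61 for AP-1 subunits, -0.12 for fibroblast markers). No median is drawn for the genes described here (red), of which 7 passed the filter on low counts only through OEIRF7. Comparison lists also hold such genes, among them Kprp, Lelp1 and Crnn, and the drawn medians include them.

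AP-1 motif matches were counted in all RefSeq promoters of the table. Of the 66 genes, 52 had a promoter entry, with 54 promoters in all. A match to TGANTCA was found in 25.9% of these and in 7.81% of all 32851 promoters. Matches were uneven within the group, with 8 of 12 promoters in the Sprr genes (66.7%), 2 of 24 in the keratins (8.33%) and 0 of 12 in the Lce genes. Among the 8 promoters available for genes higher past the limit of size, 5 held an AP-1 match (62.5%), and those of Sprr2a2, Lce1g and Krt20 held none. Sprr1b and Sprr2d, both with an AP-1 match, had at most 5 counts. The motif of interferon regulatory factors, GAAA, any 2 bases and GAAA, was found in 1 of the 54 promoters, a promoter of Tgm1 (1.85%), and in 3.44% of all promoters. TATAAA was found in 46.3% against 13.6%, and GGGCGG, the GC box, in 5.56% against 35.7%. A match is a description of letters in a window, and neighbouring copies of a tandem family share sequence.

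Markers of other cell types were examined beside these values. Keratinocyte markers, 14 genes of which Krt1, Krt5, Krt10 and Krt14 are among the 66, summed to 47.5 to 52.1 CPM with GFP and to 74.8 to 84.5 CPM with OEIRF7, and of 7 tested 3 were higher past the limit of size, Col17a1 (2.64), Cdh1 (1.84) and Lama3 (1.24). Of all tested genes, 4.66% were higher and 3.89% lower past the limit of size. At any size 6 of the 7 tested keratinocyte markers were higher and 0 lower, beside 29.0% and 29.9% of all tested genes. The median log2 fold change of the 7 was 0.75. Among the keratinocyte markers too low to test, Krt5, Krt14, Trp63 and Dsg3 had at most 5 counts in any library of either group. Mesothelial markers summed to 152 to 159 CPM with GFP and 106 to 120 CPM with OEIRF7, and Upk3b was lower (-1.32) while Krt19, which this list shares, was higher. Fibroblast markers were abundant throughout, with sums of 15600 to 16200 CPM and 14300 to 15200 CPM, and Tcf21 was the 1 gene of 10 past the limit of size (-1.33). Cardiomyocyte markers summed to 9.73 to 13.4 and 7.34 to 9.34 CPM, endothelial markers to 165 to 173 and 158 to 175 CPM, and macrophage markers to 70.6 to 81.9 and 82.9 to 89.5 CPM. At any size 3 of the 9 tested genes of these last lists were higher (Kdr, Adgre1 and Cd68) and 2 lower (Tnnt2 and Cdh5), each by less than the limit of size. These numbers stand beside 29.0% higher and 29.9% lower among all tested genes. The part of other cell types in the counts of the 66 genes was not tested.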

How the data were processed

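RNA-seq of 8 libraries, 4 labelled GFP and 4 labelled OEIRF7, was used. The authors trimmed reads with Trimmomatic, mapped them to GRCm38 with HISAT2 and deposited raw counts per gene from HTSeq-count. The authors also deposited FPKM from Cufflinks, rounded to 2 decimals, which are normalized for depth and length. Group means, log2 ratios, p-values and FDR that the authors deposited, made with DESeq, were not used. Tool versions and the strand setting are not given in the sources used here, and labels and methods differ on the extraction and library kits.

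Counts were tested in R 4.3.3 with edgeR 4.0.16 (filterByExpr, TMM factors 0.989 to 1.01, glmQLFit and glmQLFTest without covariates, Benjamini-Hochberg over 13533 genes). Each SE was the absolute log2 fold change divided by the square root of the F statistic of the test. Log2 CPM for permutation tests used a prior count of 2. Alternatives used DESeq2 1.42.0 and limma 3.58.1 on log2(FPKM + 1) and log2(FPKM + 0.1), other scalings and filters, a replicate block, and leaving out each library. Code was tested on simulated data. Every pair of libraries of a group differed by more than sampling noise. Gene positions came from GENCODE M21 and promoters from RefSeq. Every tested gene of the 66 was named, untested ones from 10 counts, and of each other list up to 3 past the limit of size plus those needed for reading. Members and lists were chosen with earlier results of these data known.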

Additional observations from a re-analysis of the deposited data

Results flagged for a closer look

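Within the 32 groups of 4 libraries of the tested genes, a library far from the other 3 by Dixon's test was found in 3. Chance gives such a result in about 1 in 20 groups of continuous values, a rate that does not hold for these 3. In Sprr2e and Sprr2f, 3 libraries tie at 0 and any read in the other meets the criterion. In Sprr2g, 3 libraries tie at 2 raw counts and differ in CPM only by depth. All 3 lie in the GFP libraries of the Sprr2 genes and rest on at most 4 reads. Sprr2e was at 0.0405 CPM in GFP replicate 3 and at 0 in the other 3, a difference of 1 read. Sprr2f was at 0.153 CPM in GFP replicate 4 and at 0 in the other 3, from 4 reads. Sprr2g was at 0.0381 CPM in GFP replicate 4, from 1 read, while the others were at 0.0746, 0.0801 and 0.081 CPM.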

How the results depend on the processing

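Of 248 fold changes of the 16 tested genes under alternatives, 235 kept their direction and their side of the threshold and 0 reversed. Krt10 lost its call in 12 alternatives, and Sprr2a1 gained one without OEIRF7 replicate 4. The number of the 66 genes higher past the limit of size was 10 and became 16 of 66 tested with any gene of at least 1 count, 3 of 8 tested with at least 10 counts in every library, and 17 of 25 tested with limma on log2(FPKM + 0.1), against 9 of the same 25 on log2(FPKM + 1), where Krt20 fell below the limit of size (0.53). The filters change which genes are tested, and the pseudocount changes the scale. Lce1a2, Lce1h, Sprr2h, Lce1d, Lce1l and Krt17 were the genes added at 1 count. Over all genes, 631 were higher, 408 with at least 10 counts in every library and 264 with limma on log2(FPKM + 1), and 527 were lower, 171 with limma on log2(FPKM + 1), where low genes are compressed. Leaving out each library in turn gave 621 to 695 genes higher, 520 to 576 lower, 10 to 12 of the 66 higher and 1 lower, and summed levels of 35.2 to 36.8 CPM (GFP) and 111 to 119 CPM (OEIRF7). With the replicate block, 634 genes were higher and 531 lower, and 10 and 1 of the 66, and Krt10 had an adjusted p of 0.0768. Same-numbered libraries deviated together with correlations of 0.0792, 0.0953, 0.138 and 0.104, not all above 0.1, so the numbers were not taken as pairs, although each library correlated best with its own number. The fitted log2 fold change of Sprr2e was 2.97 to 9.88 and that of Sprr2f 1.72 to 8.32 over the alternatives, the upper values without the only GFP library that held reads. Genes with few GFP counts have imprecise fold changes, and 50 of the 66 were too low to test.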
